A study of Mus musculus with 2 samples.

Results

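The small subunit processome and the factors that finish the 40S ribosomal subunit were examined as 40 named genes, all present among the 12836 genes of the expression table. They were chosen by gene symbol and function, and the choice and its division into role groups were made with earlier results of these data known. The measurements come from 2 libraries of mouse morulae, embryos of compacted cells that have yet to form a blastocyst. Per the labels, ICR embryos received an injection of a double-stranded RNA. In one library it targeted Nat10 (dsNat10), and in the control library it targeted GFP (dsGFP), which the mouse genome lacks. Each group had 1 library, and the protocol speaks of 50 injected morulae without saying whether that is the number per library. No difference therefore has a replicate check, no p-value can be given, and every comparison describes these libraries. RNA of a whole pool was measured, so fewer cells of a type and less RNA per cell cannot be told apart.

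The processome is a large particle that forms on the nascent ribosomal RNA precursor in the nucleolus. In it, protein complexes and the U3 small nucleolar RNA fold the 18S side of the precursor and prepare its first cleavages. The particle that leaves the nucleolus is then carried to the cytoplasm, where kinases, a GTPase-like factor and an endonuclease complete the 18S end. Nat10 acetylates cytidines of 18S rRNA and its yeast counterpart Kre33 is a part of the processome. Preimplantation embryos build new ribosomes after the embryonic genome becomes active, and loss of several of these factors in mice is known to stop development before or around the blastocyst.

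The estimated counts summed to 28303119 reads in dsNat10 and 29139232 reads in dsGFP. Nat10 (chromosome 2, 103721258 to 103762954, GRCm38) was counted at 37 reads in dsNat10, against 886 in dsGFP, and was thus 23.7-fold lower (17.1 to 33.9, the 95% counting interval, as in brackets after each fold). Of 10 morula and early lineage markers, 9 were in the table and none was at 0 reads. By the size rule explained below, 4 of the 9 (Nanog, Cdx2, Tead4 and Krt8) were lower in dsNat10 and 0 were higher. Of all genes the rule could call, 15.3% were lower and 15.2% higher. The median log2 ratio of the 9 markers was -0.86, with 6 ratios below 0. Gata3, Tfap2c and Dppa5a were above 0, at 0.41, 0.34 and 0.10. The 9 markers summed to 17498 TPM in dsNat10 and 16586 TPM in dsGFP. Without the very abundant Dppa5a, the other 8 summed to 1648 TPM in dsNat10 and 2349 TPM in dsGFP. TPM is a level per gene length that sums to 1000000 in each library. Of 5 cumulus cell markers 1 was in the table, Amhr2, at 23.9 TPM in dsNat10 and 26.9 TPM in dsGFP. The 5 blood and fibroblast markers in the table summed to 75.2 TPM in dsNat10 and 82.6 TPM in dsGFP, but differed in direction. Pecam1 was at 31.1 TPM in dsNat10 and 16.45 TPM in dsGFP. Hba-a1 was at 11.3 TPM in dsNat10 and 25.3 TPM in dsGFP, and Cd68 at 32.7 TPM in dsNat10 and 40.7 TPM in dsGFP. After rounding, Hbb-bt was at 0 reads in both libraries, and Col1a1 at 0 in dsNat10 and 9 in dsGFP. Of 6 oocyte-inherited transcripts 3 were in the table: Zp3, with 642 reads in dsNat10 and 106 in dsGFP, H1f8, with 286 in dsNat10 and 0 in dsGFP, and Gdf9, with 1 in dsNat10 and 54 in dsGFP. In the whole table, 2657 genes were at 0 reads in dsNat10 and 458 in dsGFP, and none of the 40 members was at 0 in either library. The part of these cells and transcripts in the values below was not tested.

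Most genes of this machinery were within a 2-fold difference between the libraries. By the size rule used here, 0 of the 40 genes were higher and 5 were lower in dsNat10, namely Riok1, Riok2, Rrp12, Nol6 and Bysl. The rule asks for a mean of at least 5 CPM (reads per 1000000 reads after scaling of the libraries), a log2 ratio of at least 1 in size after adding 1 CPM to each level, and a 95% counting interval of the plain ratio that excludes equality. Of the 8738 genes of the table with a mean of at least 5 CPM, 15.2% were higher and 15.3% lower by the same rule. The 12.5% of members that were lower is thus near the share of all genes, and is not a result about the members as a whole. Calls were rarer among abundant genes, and all 40 members had a mean of at least 21.3 CPM. At a mean of 50 CPM or more, 4 of 37 members were lower, beside 4.62% of all 3546 genes at that level, and 0 members were higher, beside 4.71%.

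The members' ratios were spread about equality. Over the 40 genes the median log2 ratio was -0.07 (range -1.77 to 0.98), beside 0.01 over all genes with at least 5 CPM, and 22 of the 40 ratios were below 0, beside 49.5% of all genes. The plain ratio was within 1.25-fold for 24 of the 40 members, beside 31.2% of all genes with at least 5 CPM and 47.4% of those with at least 50 CPM. It was past 1.5-fold for 8 members in the lower and 2 in the higher direction, together 10 of 40, beside 50.2% and 27.9% of all genes at the same limits. Counting error was small against these sizes: the members had between 261 and 18172 reads in a library, and for 36 of 40 the interval excluded equality, beside 89.3% of all genes. The intervals cover the counting of reads only, and variation between embryo pools or in amplification was not measured.

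**Figure D1:**
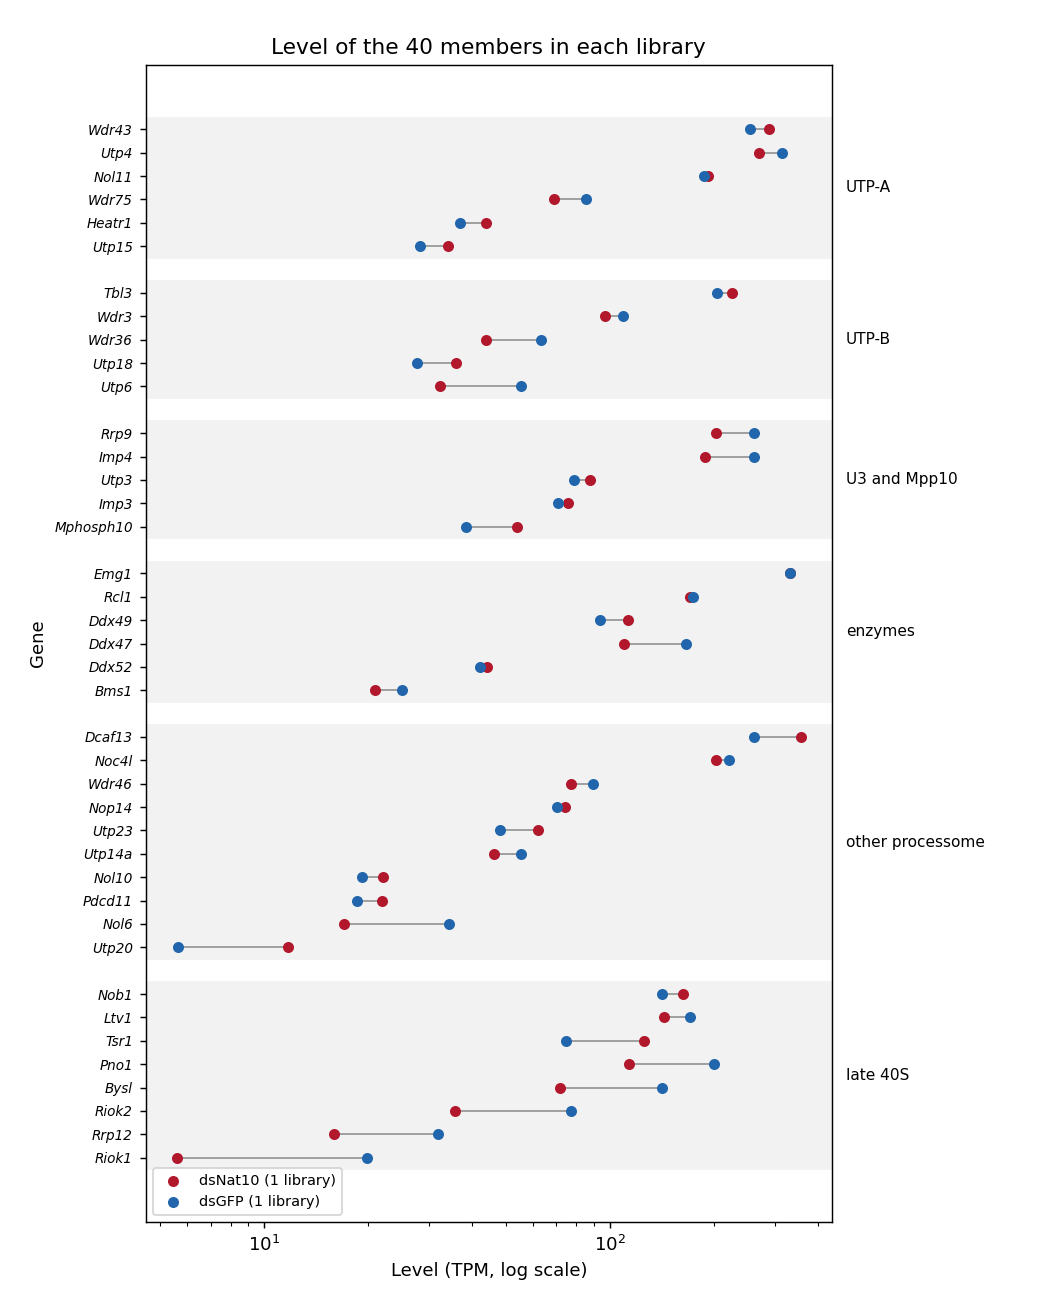
Level in TPM on a log scale for each of the 40 genes, grouped by role, with dsNat10 in red and dsGFP in blue and 1 library per group. Most pairs of points lie close together, and the widest gaps are those of Riok1, Utp20, Riok2, Rrp12, Nol6 and Bysl.

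**Figure D2:**
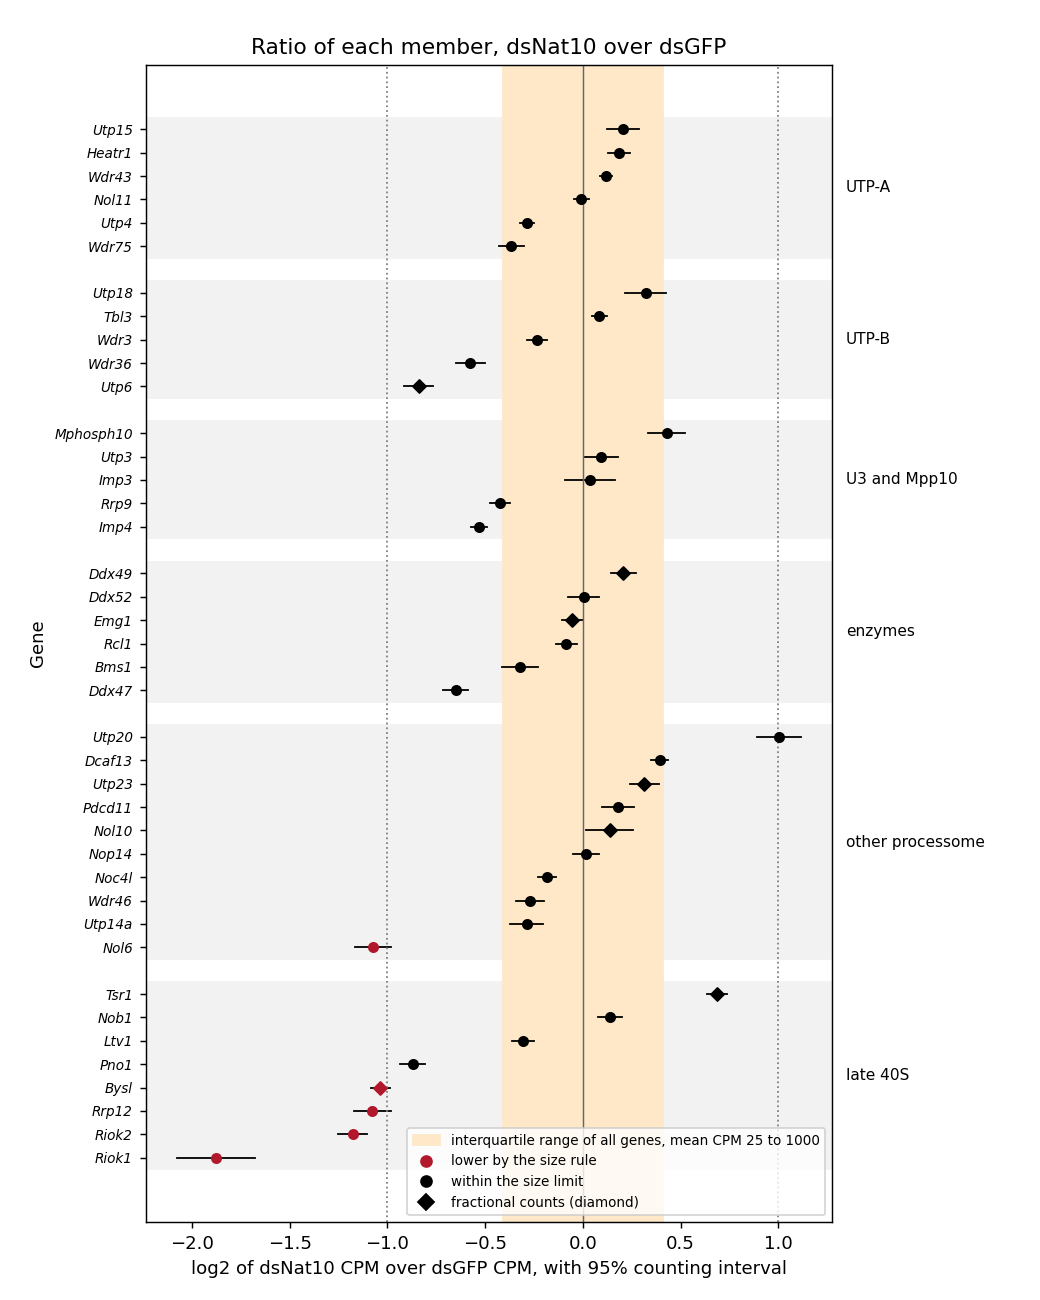
The log2 of dsNat10 CPM over dsGFP CPM, without pseudocount, for each gene by role, with the 95% counting interval as a bar. Red marks the 5 genes lower by the size rule, diamonds mark fractional counts, the shaded band is the interquartile range of all genes with a mean CPM of 25 to 1000, and dotted lines mark a 2-fold difference.

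Sequences before the start of the lower genes are shown because 3 of the 5 have an entry in the RefSeq promoter table (GRCm38.p6). These are the 250 bases before the annotated start, 5' to 3' on the strand of the gene. They lie at chr13:38036739-38036988 on the plus strand for Riok1, chr17:17374082-17374331 on the plus strand for Riok2 and chr17:47611493-47611742 on the minus strand for Bysl. None of the 3 holds the E-box letters CACGTG, the site that Myc and Max proteins are known to bind in genes of ribosome production.
Riok1: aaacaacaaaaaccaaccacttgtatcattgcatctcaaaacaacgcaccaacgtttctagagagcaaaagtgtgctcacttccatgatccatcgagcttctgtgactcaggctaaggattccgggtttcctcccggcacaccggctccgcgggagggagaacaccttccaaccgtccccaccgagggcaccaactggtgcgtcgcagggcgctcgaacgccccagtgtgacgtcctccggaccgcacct
Riok2: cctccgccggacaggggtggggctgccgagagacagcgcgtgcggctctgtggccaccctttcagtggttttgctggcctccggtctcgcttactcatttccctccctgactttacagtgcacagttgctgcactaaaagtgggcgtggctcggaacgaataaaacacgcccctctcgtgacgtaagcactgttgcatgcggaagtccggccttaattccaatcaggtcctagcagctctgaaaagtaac
Bysl: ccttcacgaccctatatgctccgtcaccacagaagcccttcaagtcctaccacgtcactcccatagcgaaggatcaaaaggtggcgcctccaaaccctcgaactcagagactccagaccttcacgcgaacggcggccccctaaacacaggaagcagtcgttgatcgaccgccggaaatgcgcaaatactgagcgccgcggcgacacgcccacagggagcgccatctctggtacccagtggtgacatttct

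In the table, 33 of the 40 members had an entry, with 34 start sites between them. In the window from 250 bases before to 50 bases after the start, CACGTG occurred at 10 of the 34 starts (29.4%), beside 7.15% of all 32851 starts and 9.72% of the 13027 starts of genes in the table with reads. The motif reads the same on both strands, and 6 of the 10 matches begin after the start. In the 250 bases before the start alone, the shares were 11.8% of the members' starts (4 of 34), 8.12% of the starts of genes in the table and 6.02% of all starts. The windows were chosen after seeing the data. In these 250 bases, the median share of G and C was 57% for the members' starts and 52.4% for all starts, and its part in the matches was not tested. Such matches describe letters and not binding. The 10 matches follow with 30 bases each, in the direction of the gene, with the motif in capitals.
Utp4: tgcgcaagcgcgCACGTGgggccggggcgg
Wdr43: cgcccgggcgaaCACGTGgctgccgcggag
Nol11: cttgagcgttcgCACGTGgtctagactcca
Utp18: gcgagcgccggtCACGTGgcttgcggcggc
Imp4: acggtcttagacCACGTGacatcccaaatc
Wdr46: aagggagtttcgCACGTGgatcgttgttcg
Utp20: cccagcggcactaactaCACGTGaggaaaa
Ltv1: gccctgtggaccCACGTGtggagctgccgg
Pno1: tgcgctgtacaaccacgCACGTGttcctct
Tsr1: tcacttggtgcaCACGTGgactgcagaatg
Of these 10 genes, 0 were higher or lower by the size rule, 6 had a log2 ratio below 0, and the ratios ran from -0.86 for Pno1 to 0.98 for Utp20. Of the 23 genes with an entry and no match, 3 were lower and 0 higher, 12 were below 0, and the ratios ran from -1.77 to 0.42. Of the 7 genes without an entry, 2 were lower and 0 higher, and 4 were below 0. Of all genes with at least 5 CPM, 15.3% were lower and 15.2% higher.

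The UTP-A complex, which binds the precursor first and in vertebrates also serves its transcription, was at nearly the same level in both libraries. Its 6 genes summed to 896.6 TPM in dsNat10 and 907.8 TPM in dsGFP, with a median log2 ratio of 0.06. None met the size rule, and 3 ratios were below 0. Utp4, a WD-repeat protein known as cirhin, had 10769 reads (269.6 TPM) in dsNat10 and 13250 reads (315.4 TPM) in dsGFP, or 1.22-fold lower (1.19 to 1.25). Wdr75, the counterpart of yeast Utp17, had 3725 reads in dsNat10 and 4847 in dsGFP, or 1.29-fold lower (1.23 to 1.34). These were the lowest ratios of the complex. Utp15, which had 2552 reads in dsNat10 and 2237 in dsGFP, was 1.15-fold higher (1.09 to 1.22). Heatr1, the long HEAT-repeat protein that corresponds to yeast Utp10, had 5580 reads in dsNat10 and 4962 in dsGFP and was 1.14-fold higher (1.09 to 1.18). Nol11, a protein of the vertebrate complex, and Wdr43, the counterpart of yeast Utp5, lay between, and the interval of Nol11 (11075 reads in dsNat10, 11249 in dsGFP) held equality.

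The UTP-B complex, a second scaffold that helps U3 to dock, had 5 genes with a median log2 ratio of -0.23, and none met the size rule. Utp6 had 2297 reads (32.2 TPM) in dsNat10 and 4155 reads (55.4 TPM) in dsGFP, 1.79-fold lower (1.70 to 1.88). Its dsNat10 count was fractional, 2296.99 before rounding, and what this means for its value was not tested. Wdr36, the counterpart of yeast Utp21, had 2525 reads in dsNat10 and 3800 in dsGFP and was 1.49-fold lower (1.42 to 1.57). Both thus had fewer reads in dsNat10 by more than counting error, short of the limit. Utp18 had 1690 reads in dsNat10 and 1367 in dsGFP, 1.25-fold higher (1.16 to 1.34), and Tbl3, the counterpart of yeast Utp13, was 1.06-fold higher (1.03 to 1.09). Wdr3, the counterpart of yeast Utp12, was 1.18-fold lower (1.14 to 1.22). Genes of the same complex therefore had ratios on both sides of equality, from -0.83 to 0.31 on the log2 scale.

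The U3 particle and the Mpp10 complex, which joins U3 to the precursor, showed a like spread over 5 genes, and none met the size rule. Mphosph10, which gives the Mpp10 complex its name, had 2105 reads (53.9 TPM) in dsNat10 and 1579 reads (38.5 TPM) in dsGFP, 1.35-fold higher (1.26 to 1.44). Its partner Imp4 had 7515 reads in dsNat10 and 10976 in dsGFP and was 1.45-fold lower (1.40 to 1.49), while the other partner, Imp3, had 1043 reads in dsNat10 and 1027 in dsGFP with an interval that held equality. The 3 members of this complex thus differed in direction. Rrp9, the WD-repeat protein that binds the U3 RNA, had 5286 reads in dsNat10 and 7161 in dsGFP, 1.34-fold lower (1.29 to 1.39). Utp3, the counterpart of yeast Sas10, was 1.07-fold higher (1.01 to 1.13).

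Among 6 enzymes of the processome and their partners, the median log2 ratio was -0.07, and none was past the size rule. Ddx47, a DEAD-box RNA helicase, had 3367 reads (110.2 TPM) in dsNat10 and 5341 reads (166.2 TPM) in dsGFP, 1.57-fold lower (1.504 to 1.640). The helicase Ddx49 had 4178 reads in dsNat10 and 3656 in dsGFP and was 1.15-fold higher (1.10 to 1.21), but its counts are fractional and 29.8% of its exon bases overlap Homer3 on the other strand. Ddx52, also a helicase, had 2542 reads in dsNat10 and 2561 in dsGFP. The 3 helicases were thus lower, higher and level. Bms1, the GTPase of the particle, had 1661 reads in dsNat10 and 2096 in dsGFP, 1.25-fold lower (1.17 to 1.33), and its partner Rcl1 was 1.06-fold lower (1.02 to 1.10). Emg1, the methyltransferase of a pseudouridine in 18S rRNA, was among the most abundant members, at 331.1 TPM in dsNat10 and 330.9 TPM in dsGFP, with fractional counts.

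The other 10 factors of the processome held the highest member ratio and 1 of the lower calls. Utp20, a very long HEAT-repeat protein of the outer particle (chromosome 10, 88746607 to 88826814), had 1967 reads (11.8 TPM) in dsNat10 and 991 reads (5.63 TPM) in dsGFP. Its plain ratio was 2.01-fold higher (1.86 to 2.17), but the log2 ratio after the pseudocount was 0.98, just short of the rule, and it met the rule with plain totals or a pseudocount of 0.1 CPM. Nol6, the counterpart of yeast Utp22 (chromosome 4, 41114427 to 41124339), had 1412 reads (17.0 TPM) in dsNat10 and 3004 reads (34.3 TPM) in dsGFP. It was 2.11-fold lower (1.98 to 2.24), and its log2 ratio of -1.06 is just past the limit, so that it met the rule. These were also among the least abundant members by TPM.

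The remaining 8 of these factors were closer to equality than these. Dcaf13, the counterpart of yeast Sof1, had 9360 reads (356.4 TPM) in dsNat10 and 7203 reads (260.9 TPM) in dsGFP, 1.31-fold higher (1.27 to 1.35), and was the most abundant member in dsNat10. Utp14a, known in yeast to activate the helicase that removes U3, had 2109 reads in dsNat10 and 2599 in dsGFP and was 1.22-fold lower (1.15 to 1.29). Pdcd11, the counterpart of yeast Rrp5, which serves both subunits, was 1.13-fold higher (1.07 to 1.20). Wdr46, a scaffold protein, was 1.21-fold lower (1.15 to 1.27), and Utp23, a PIN-domain protein with fractional counts, was 1.24-fold higher (1.18 to 1.31). Nop14 had 3615 reads in dsNat10 and 3607 in dsGFP, and its partner Noc4l was 1.14-fold lower (1.10 to 1.17). Nol10, the counterpart of yeast Enp2, with fractional counts, was 1.10-fold higher (1.01 to 1.19).

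The 8 factors placed in late 40S assembly had the largest share of lower genes among the 6 role groups, 4 of 8, beside 1 of the 32 other members. The share of lower genes in the whole table was 15.3% from a mean of 5 CPM, 8.74% from 20 CPM and 4.62% from 50 CPM upwards. The median log2 ratio of the late factors was -0.95, beside -0.002 for the other members, and their summed level was 673.7 TPM in dsNat10 and 856.7 TPM in dsGFP. For the other members, the sums were 3617 TPM in dsNat10 and 3731 TPM in dsGFP. The groups are small, were formed with earlier results known and have no replicate check, so this is a count in these libraries. It also depends on the placing of Rrp12 and Bysl, which are among the 4, with the late factors. The groups leave out 28 other genes of the pathway, of which 1 was lower by the rule. Among these, Riok3, Tsr3, Bud23, Dimt1 and Tsr2 had log2 ratios of 0.50, 0.24, -0.04, -0.22 and -1.13. Of the late factors, 6 had a ratio below 0 and 2 above it.

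The 2 atypical kinases of the RIO family among the members were lower, while their relative Riok3, one of the other pathway genes, had 4780 reads in dsNat10 and 3408 in dsGFP, 1.42-fold higher (1.356 to 1.481), with fractional counts. Riok1, an ATPase known in human cells to act in the last step of 18S maturation (chromosome 13, 38036989 to 38061433), had 261 reads (5.59 TPM) in dsNat10 and 967 reads (19.8 TPM) in dsGFP. It was 3.67-fold lower (3.20 to 4.22), the lowest ratio of the 40, and had the lowest mean level by CPM. At a mean of 20 CPM or more, 8.74% of all genes were lower by the size rule. Riok2, which joins the particle earlier and is released from it in the cytoplasm (chromosome 17, 17374332 to 17394899), had 2076 reads (35.6 TPM) in dsNat10 and 4747 reads (77.4 TPM) in dsGFP. It was 2.26-fold lower (2.15 to 2.38). Of its exon bases, 10.6% overlap the antisense gene Gm26873 on the other strand. No counts are given for Gm26873, and its part in the value of Riok2 was not tested. These 2 kinases are the only called members whose counting interval lies wholly past 2-fold; the intervals of the other 3 reach below it.

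Rrp12 and Bysl, which accompany the particle out of the nucleus, were lower by about the size limit. Rrp12, a HEAT-repeat export factor (chromosome 19, 41859483 to 41896153), had 1335 reads (15.9 TPM) in dsNat10 and 2846 reads (31.8 TPM) in dsGFP, 2.11-fold lower (1.98 to 2.25). Bysl, the counterpart of yeast Enp1 (chromosome 17, 47599331 to 47611492), had 5092 reads (71.7 TPM) in dsNat10 and 10550 reads (141.2 TPM) in dsGFP, 2.05-fold lower (1.98 to 2.12). The counts of Bysl are fractional, and 9.37% of its exon bases overlap Ccnd3 on the other strand. Ccnd3 had 4259 reads in dsNat10 and 7627 in dsGFP, 1.77-fold lower (1.71 to 1.84), also with fractional counts, and its part in the value of Bysl was not tested. In TPM and in FPKM with a pseudocount of 1, Rrp12, Bysl and Nol6 were within the limit, while Riok1 and Riok2 were lower by the rule.

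The factors of the final cleavage lay on opposite sides of equality. Pno1, the RNA-binding partner of the endonuclease, had 3036 reads (113.7 TPM) in dsNat10 and 5604 reads (199.6 TPM) in dsGFP, 1.83-fold lower (1.75 to 1.91), short of the rule. Nob1, the endonuclease that makes the 3' end of 18S rRNA, had 4601 reads (162.6 TPM) in dsNat10 and 4221 reads (141.9 TPM) in dsGFP, 1.10-fold higher (1.06 to 1.15). Nob1 was the most abundant late factor in dsNat10, and Pno1 the most abundant in dsGFP. Ltv1, which is released before the last steps, had 4403 reads in dsNat10 and 5502 in dsGFP and was 1.24-fold lower (1.19 to 1.29). Tsr1, a GTPase-like factor that keeps immature particles from translating, had 7755 reads (125.2 TPM) in dsNat10 and 4874 reads (74.8 TPM) in dsGFP, 1.61-fold higher (1.55 to 1.67). Its counts are fractional, and 32.3% of its exon bases overlap Srr on the other strand. Srr had 0 reads in dsNat10 and 602 in dsGFP, with fractional counts, and reads of the overlap cannot be told apart because the kit does not mark strand.

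**Figure D3:**
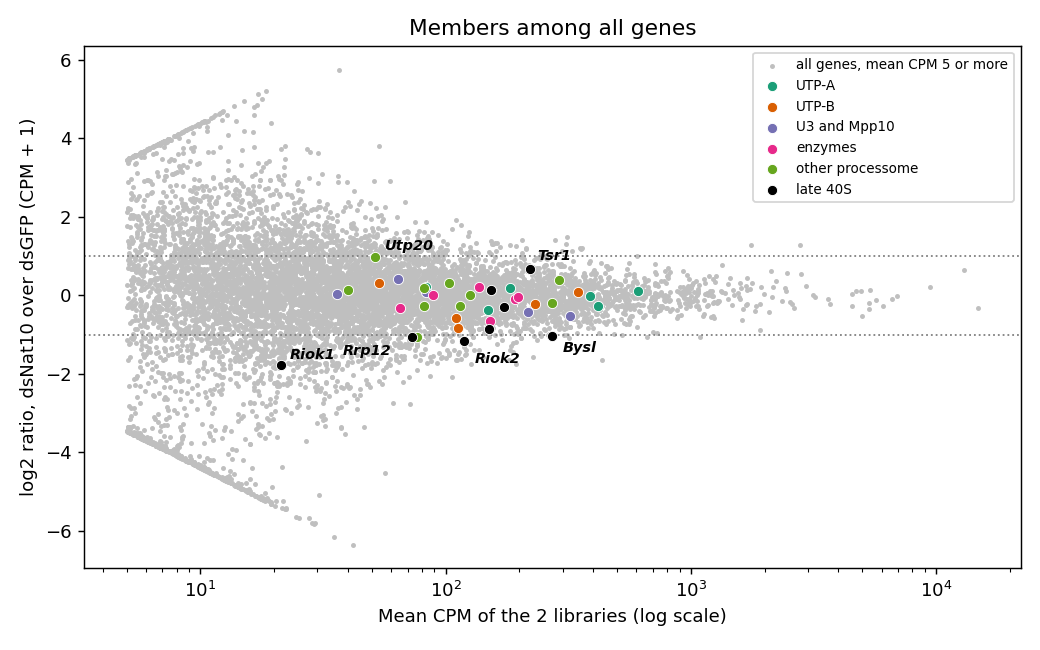
Log2 ratio of dsNat10 over dsGFP after adding 1 CPM, against the mean CPM of the 2 libraries on a log scale, with all 8738 genes of at least 5 CPM in grey and the 40 members coloured by role. The members lie at a mean of 21.3 CPM or more, above the low levels where the spread of all genes is widest, and Riok1 has the lowest mean of the 40.

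By level per length, the order of the members was similar in both libraries. In dsNat10 the most abundant were Dcaf13 (356.4 TPM), Emg1 (331.1 TPM) and Wdr43 (287.6 TPM), and in dsGFP they were Emg1 (330.9 TPM), Utp4 (315.4 TPM) and Imp4 (261.2 TPM). The least abundant were Riok1 (5.59 TPM) and Utp20 (11.8 TPM) in dsNat10, and Utp20 (5.63 TPM) and Pdcd11 (18.6 TPM) in dsGFP. In each library 16 members were above 100 TPM. Riok2 stood at place 31 of 40 in dsNat10 and at place 21 in dsGFP, and Bysl at place 22 in dsNat10 and 15 in dsGFP. Tsr1 stood at place 13 in dsNat10 and 22 in dsGFP. Across the 40 genes, which share the libraries, Spearman's rho between the levels was 0.94, beside 0.87 across the 8738 genes. Whether neighbours in this order differ beyond the spread between embryo pools cannot be said from 1 library each.

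Of 28 other genes of the same pathway, 2 were higher and 1 lower by the size rule. The shares of all genes given above were 15.2% and 15.3% from 5 CPM, and 4.71% and 4.62% from 50 CPM upwards. The 28 genes had a median log2 ratio of -0.07, with 18 ratios below 0. Nop9, an RNA-binding protein of 18S maturation, was at 3790 reads in dsNat10 and 1238 in dsGFP (log2 ratio 1.61). Utp25, a processome protein, had 594 reads in dsNat10 and 116 in dsGFP (log2 ratio 2.12), with fractional counts. Tsr2, a chaperone that hands the protein Rps26 to the particle, had 4198 reads in dsNat10 and 9326 in dsGFP (log2 ratio -1.13), also fractional. The box C/D proteins of the U3 particle, Fbl, Nop56, Nop58 and Snu13, had log2 ratios of 0.01, 0.53, -0.31 and -0.46. Thumpd1, the adaptor of Nat10 in tRNA acetylation, had a log2 ratio of -0.35.

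The neighbouring lists of ribosome production were set beside the same shares of all genes from 5 CPM, 15.2% higher, 15.3% lower and 49.5% below 0. From a mean of 50 CPM upwards, 4.71% of all genes were higher and 4.62% lower. The median of the mean CPM was 479 for the small subunit proteins and 142 for the 60S factors. The 31 proteins of the small subunit had a median log2 ratio of -0.14, with 0 higher and 0 lower by the size rule and 24, or 77.4%, below 0. The 50 factors of 60S assembly had a median of 0.01, with 2 higher (4.0%) and 3 lower (6.0%) and 24 below 0 (48.0%). The 40 members, at a median of -0.07, lay between these lists, and their difference from them has no replicate check.

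**Figure D4:**
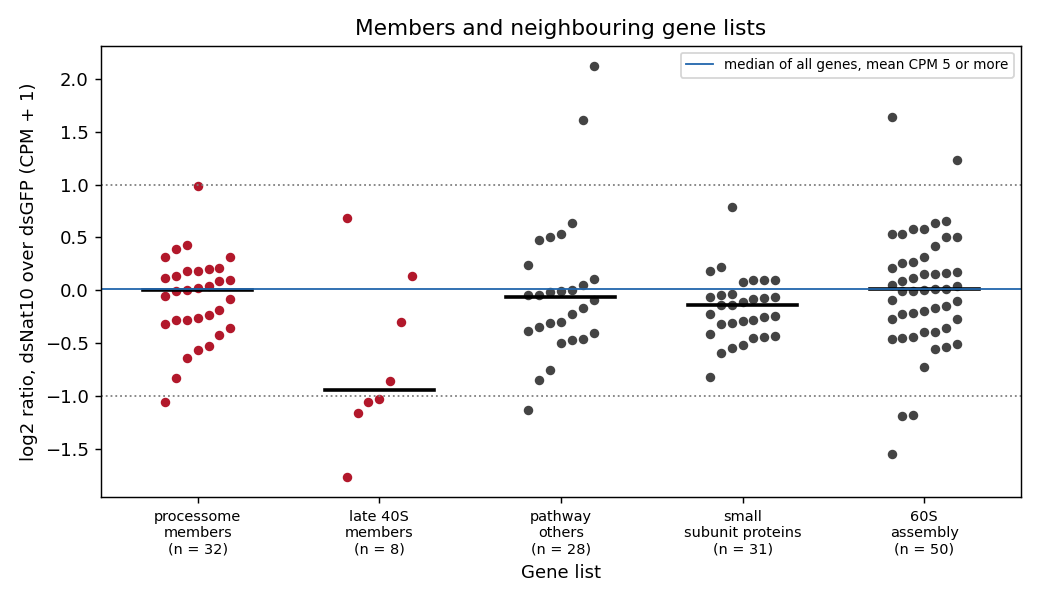
Log2 ratio of dsNat10 over dsGFP after adding 1 CPM for the 32 processome and 8 late 40S members (red) and for the other pathway genes, small subunit proteins and 60S assembly factors (grey), with 1 point per gene and black bars at the medians. The late 40S factors centre on -0.95, and the medians of the other lists lie between -0.14 and 0.01.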

How the data were processed

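Per the labels and the design text, 1 dsNat10 and 1 dsGFP library of pooled morulae were made from polyadenylated RNA by SMART-seq2 and read from both ends on the DNBSEQ platform. Trim Galore trimmed, HISAT mapped to GRCm38 and HTSeq counted the reads, per the submitters' processing notes, with versions not given in the sources used here. Deposited by the authors were estimated counts, which are not normalized, and TPM and FPKM values, which are divided by gene length. Of the genes, 23.2% have fractional counts, made by a program not given in the sources used here.

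Counts were rounded and scaled with TMM (edgeR 4.0.16, R 4.3.3), which moved the log2 ratio by -0.03 against plain totals. Intervals are exact (Clopper-Pearson) 95% intervals of the ratio of counts and cover counting error only, since amplified reads without molecular identifiers do not each stand for a molecule. With 1 library per group no test was run. The members, role groups and lists were chosen with earlier results of these data known. All members are described, with full values for those past the size rule and for the 2 highest and 2 lowest of each group. The genes that overlap members, and the promoter windows searched, were added after seeing the data. Coordinates and promoters come from RefSeq (GRCm38.p6), and exon overlaps from GENCODE M21.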

Additional observations from a re-analysis of the deposited data

How the results depend on the processing

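The counts of members past the size rule and their median were recomputed with other scalings, units, pseudocounts, filters and size limits. The count of lower members was 2 in TPM (11.2% of all genes were lower) and in FPKM (10.4%) and 8 at a size limit of 1.5-fold (23.8%). The count of higher members was 1 with plain totals (15.8% of all genes) and with a pseudocount of 0.1 CPM (16.2%), in both cases Utp20, and 2 at 1.5-fold (25.1%). The median log2 ratio was -0.013 in TPM, beside 0.064 over all genes. Over the 33 members with whole counts it was -0.18, beside 0.007 over all genes with whole counts. The cause of these shifts was not tested, apart from the limit of 1.5-fold, which is lower and so passes more genes by construction. With DESeq2 1.42.0 size factors, a pseudocount of 5, no filter, or a mean of 20 CPM or more, the counts were 5 lower and 0 higher, while the share of all genes that was lower ran from 8.74% at 20 CPM to 25.4% with no filter. At a mean of 50 CPM or more and without fractional counts, 4 were lower and 0 higher. No called member changed sign under any scaling, unit or pseudocount, and of the others Nol11, Emg1 and Ddx52, all near equality, did. No paired analysis was possible because each group has 1 library. Depth limits Riok1 most, with 261 reads in dsNat10.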

Other observations

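Exons of 19 of the 40 members overlap a gene on the other strand in GENCODE M21, and for 7 the overlap covers at least 10% of the member's exon bases. The largest shares belong to Tbl3 (37.3%, with Noxo1), Tsr1 (32.3%, with Srr) and Ddx49 (29.8%, with Homer3). Riok2, lower by the size rule, is also among the 7 (10.6%, with Gm26873). Homer3 had 0 reads in dsNat10 and 1 in dsGFP. For these members, reads of the overlap cannot be assigned to a strand.

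The ratios showed little relation to transcript length. Across the 40 members Spearman's rho between the log2 ratio and the length of the transcript was -0.04, beside 0.07 across the 8587 genes that passed the mean filter and have a length. The 20 longer members, of at least 2937 bases, had a median log2 ratio of -0.12, and the 20 shorter ones -0.07. Split at the same length, all genes had medians of 0.08 (longer) and -0.03 (shorter). The very long Utp20 and the long Nol6 and Rrp12 were at opposite ends. These values describe genes that share the libraries and are given without a test.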
